A study of Mus musculus with 6 samples.

Results

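Kallikreins are a family of secreted serine proteases whose genes stand side by side on mouse chromosome 7. The 10 members described here are the rows of the count table for Klk5, Klk6, Klk7, Klk8, Klk9, Klk10, Klk11, Klk13 and Klk14, which encode proteases, and for the pseudogene Klk2-ps, out of 55536 genes listed. They were matched by Ensembl identifier, and they were chosen by the counts of Klk2-ps, which were known to be higher in the mutant libraries. That difference is therefore a description here, and the values of the other 9 members and of the genes around them are what was examined.

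RNA was sequenced in bulk from basal keratinocytes of E16.5 mouse embryos, sorted as Epcam+ α6+ cells, in 3 Ctrl and 3 TKO samples. TKO embryos were Suv39h1 f/f, Suv39h2-/- and Setdb1 f/f and carried K14CreERT2, a recombinase driven by the Krt14 promoter that acts after tamoxifen. Ctrl embryos had the same alleles without the recombinase, so both groups lacked Suv39h2. The 3 genes encode methyltransferases that place H3K9me3, a histone mark of silent chromatin. The litters listed for this experiment were mosaic, with tamoxifen on each day from E9.5 to E11.5, so a TKO library can hold cells that kept their genes. Total counts were 102159175, 136515436 and 104422632 in Ctrl 1, 2 and 3, and 116308383, 108957256 and 118413082 in TKO 1, 2 and 3. Ctrl 1 and TKO 2 carry the code F and the other 4 samples the code M in their labels.

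In the upper epidermis, kallikreins are stored in lamellar granules, secreted as inactive precursors, and switched on by trimming in a cascade in which Klk5 can activate itself and other members. Active Klk5, Klk7 and Klk14 cut the junction proteins that hold dead cells together, and the inhibitor LEKTI, encoded by Spink5, restrains them. All are trypsin-like or chymotrypsin-like enzymes whose catalytic triad includes a histidine and a serine, each in a short stretch of residues that hardly varies within the family.

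Klk2-ps (ENSMUSG00000108444) is annotated as a transcribed unprocessed pseudogene on the plus strand of chromosome 7, from 43565678 to 43570170 of GRCm39 in GENCODE vM39. Its single transcript in this record is 571 bases long and has 3 exons. They are shown because the members were chosen by the counts of this transcript, and the capitals mark the letters that match the codons around the histidine, searched as GCNGCNCANTGN, and around the serine, searched as GANNNNGGNGGNCCN. Transcripts were searched on their own strand, and the patterns do not overlap each other. The exons lie at chr7:43565678-43565881, chr7:43567870-43568088 and chr7:43570023-43570170.
Klk2-ps exon 1: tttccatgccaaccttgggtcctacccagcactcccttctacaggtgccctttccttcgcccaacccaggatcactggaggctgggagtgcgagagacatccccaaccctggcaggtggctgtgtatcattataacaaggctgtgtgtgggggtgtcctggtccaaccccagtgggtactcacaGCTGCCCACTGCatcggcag
Klk2-ps exon 2: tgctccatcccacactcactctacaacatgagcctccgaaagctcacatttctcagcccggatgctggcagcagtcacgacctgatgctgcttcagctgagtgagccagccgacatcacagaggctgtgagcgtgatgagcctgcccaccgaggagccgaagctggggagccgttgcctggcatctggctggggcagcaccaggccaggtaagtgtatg
Klk2-ps exon 3: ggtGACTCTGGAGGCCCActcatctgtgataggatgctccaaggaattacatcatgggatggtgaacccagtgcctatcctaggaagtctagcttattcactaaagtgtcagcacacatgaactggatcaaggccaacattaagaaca

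Both stretches are thus still present in the pseudogene, each matched once. Their starts are 242 bases apart, which leaves 2 bases over after whole codons, and 6 stop codons lie between them in the frame of the histidine. In the 9 protein-coding members each stretch is also matched once, 408 to 435 bases apart, a whole number of codons in every case and with 0 stop codons between. Of 21642 protein-coding genes, 1.02% hold both stretches in this order in their longest coding transcript. The serine stretches below, in capitals with 30 bases on each side, show the pseudogene next to Klk1b24, to Klk10 and to Klk7.
Klk2-ps serine: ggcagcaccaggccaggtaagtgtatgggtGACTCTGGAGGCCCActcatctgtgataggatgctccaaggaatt
Klk1b24 serine: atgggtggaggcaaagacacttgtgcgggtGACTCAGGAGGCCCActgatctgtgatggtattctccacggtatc
Klk10 serine: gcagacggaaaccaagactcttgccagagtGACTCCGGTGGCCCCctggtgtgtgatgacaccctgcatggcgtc
Klk7 serine: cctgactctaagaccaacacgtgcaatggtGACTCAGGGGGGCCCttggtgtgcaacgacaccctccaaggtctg

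Klk2-ps was aligned with the other members and the 17 other kallikreins that have a protein-coding record, but not with other kallikrein pseudogenes. The longest alignment was with Klk1b4, a member of the rodent Klk1b group, with 74.1% identity over 197 aligned bases. Klk1 and Klk1b5 followed with 196 aligned bases each. No stretch of 50 bases in the Klk2-ps transcript occurs in any other kallikrein transcript, and the same holds for the 9 protein-coding members, so reads of that length that match perfectly would not be split within the family. Other records do overlap. A second record named Klk2-ps (ENSMUSG00000121302), a long non-coding RNA on the same strand that the count table does not list, shares 356 of the 571 exon bases, and the antisense record Gm72748, not listed either, shares 219. Reads from these records and from the pseudogene cannot be told apart in the counts.

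Klk2-ps had 0 counts in each of the 3 Ctrl libraries and 83, 159 and 64 counts in TKO 1, 2 and 3. The TKO values are 0.705, 1.44 and 0.526 CPM, that is counts scaled to the library size after TMM normalization. All TKO libraries lie above all Ctrl libraries, and TKO 2 is the highest. The mean in TKO, 0.890 CPM, was at least 32.8-fold higher than a floor of 3 counts per Ctrl library, which covers counting error only. In the edgeR quasi-likelihood fit the adjusted p was 0.0284, a description only, since the gene was picked because its counts rise. The called genes next to the threshold of 0.05 were Pcdhgb2 and Atf7ip, with adjusted p-values of 0.0397 and 0.0429, and the first uncalled ones were Sprr2a3 and Gm45056, with 0.0502 and 0.0505. The call was lost when Ctrl 1, Ctrl 2, Ctrl 3 or TKO 2 was left out, with adjusted p-values of 0.103, 0.115, 0.111 and 0.101, while the log2 fold change stayed between 9.15 and 9.92.

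Of 20622 genes tested, 13 had no count in any Ctrl library. The filter lets such a gene through only where the TKO libraries hold counts, and genes of this kind with fewer counts were not tested, so the number says nothing on how common the pattern is. Klk2-ps had rank 4 by fitted fold change, although a fitted fold against 0 depends on the prior count.

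**Figure D1:**
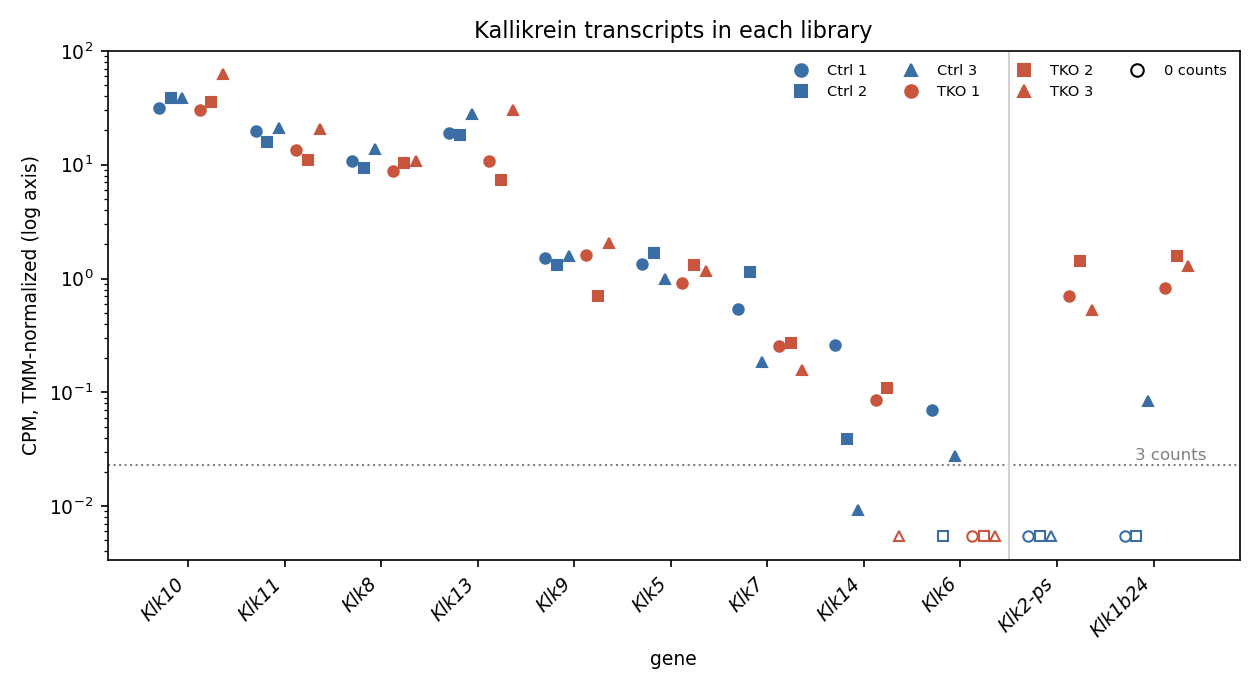
CPM of each kallikrein (log axis) in the 6 libraries, with circles, squares and triangles for replicates 1, 2 and 3, open symbols for 0 counts, and a dotted line at 3 counts in the deepest library. Groups overlap for the 9 protein-coding members, while Klk2-ps and Klk1b24, right of the vertical line, lie higher in all 3 TKO libraries than in any Ctrl library.

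Among the 10 members 8 passed the filter on low counts, and 1 of them, Klk2-ps, was called higher. A call needs an adjusted p under 0.05 together with a log2 fold change beyond 1 in either direction. Across all genes tested 0.131% were called higher and 0% lower, and since Klk2-ps was picked because it rises nothing is read from that count. Of the 9 protein-coding members 7 were tested and 0 were called. At an unadjusted p under 0.05 there were also 0, where edgeR put 4.06% of all genes higher and 2.02% lower, and DESeq2, which called 0.936% of all genes higher and 0.102% lower, also called 0 of the 7. In 0 of the 7 did the groups fail to overlap, against 11.5% of all genes. By edgeR 1 of the 7 had a positive and 6 a negative log2 fold change, with a median of -0.23 against 0.01 over all genes tested. Adjusted p-values were 0.862 or above.

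The proteases that cut cell junctions in the outer epidermis were low. Klk5, which can start the cascade, had 133, 215 and 106 counts in Ctrl 1, 2 and 3 and 108, 146 and 141 in TKO 1, 2 and 3. These ranges overlap, and the log2 fold change was -0.23 with a 95% interval from -1.08 to 0.62. Klk7, the chymotrypsin-like enzyme of the outer layers, had 53, 147 and 20 counts in Ctrl and 30, 30 and 19 in TKO. Its highest library by far was Ctrl 2 and the others overlap. The fitted log2 fold change of Klk7 was -1.44, from -2.97 to 0.09 (edgeR adjusted p = 0.862), and it moved to -0.66 without Ctrl 2. Klk14, a trypsin-like activator of other members, had 26, 5 and 1 counts in Ctrl and 10, 12 and 0 in TKO and was not tested. Most of its counts came from Ctrl 1, TKO 1 and TKO 2.

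Ctrl 2 was also the highest library for some other genes of late differentiation. Of 12 tested genes on a list of 15 granular layer markers, 6 were highest in Ctrl 2 (Ivl, Loricrin, Flg2, Cdsn, Hrnr and Asprv1), 3 in TKO 2 (Tgm1, Sprr1b and Cnfn), 2 in Ctrl 3 (Casp14 and Tgm3) and 1, Flg, in TKO 3. On this list edgeR called 0 genes and DESeq2 called 1 higher, Sprr1b, a precursor of the cornified envelope. Over all genes tested DESeq2 called 0.936% higher. Sprr1b had 127, 126 and 284 counts in Ctrl and 747, 2092 and 511 in TKO, without overlap (DESeq2 adjusted p = 5.62e-05, edgeR adjusted p = 0.214). The markers other than Asprv1 and the cascade genes were named after their values were seen. The summed CPM of that list was 341, 413 and 419 in Ctrl and 380, 360 and 361 in TKO, and its most abundant gene was Asprv1, a protease of the granular layer, at 174, 186 and 174 CPM in Ctrl and 144, 143 and 181 CPM in TKO. All 8 fibroblast markers were highest in Ctrl 2 too, with summed CPM of 1211, 3392 and 3033 in Ctrl and 2179, 2582 and 2831 in TKO, and Col1a1 the most abundant. The part of granular layer cells or fibroblasts in the Klk7 value was not tested. Fewer cells of a type and less RNA per cell cannot be told apart in bulk samples.

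Klk8, Klk10, Klk11 and Klk13 made up most of the kallikrein RNA. Klk8, known as neuropsin for its role in the brain and also a skin protease, had 10.9, 9.31 and 13.9 CPM in Ctrl and 8.78, 10.4 and 10.8 CPM in TKO. Its log2 fold change was -0.18 (-0.64 to 0.27), the narrowest interval of the family. Klk11, a trypsin-like member found in many epithelia, had 1968, 2057 and 2251 counts in Ctrl and 1594, 1218 and 2492 counts in TKO, and its log2 fold change was -0.33 (-0.85 to 0.19). In both genes the groups overlap, with TKO 1 the lowest library for Klk8 and TKO 2 for Klk11.

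Klk10, the most abundant member, had 31.4, 38.5 and 38.7 CPM in Ctrl and 30.1, 35.8 and 62.9 CPM in TKO. TKO 3 stands far above the rest, and the log2 fold change of 0.25 (-0.32 to 0.81) became -0.13 without it. Klk13, a trypsin-like protease of stratified epithelia, had 19.2, 18.2 and 27.7 CPM in Ctrl and 10.8, 7.42 and 30.1 CPM in TKO. Here TKO 1 and TKO 2 lie below every Ctrl library and TKO 3 above them all. The log2 fold change of Klk13 was -0.43 (-1.45 to 0.59), and without TKO 3 it was -1.26 with an adjusted p of 0.0770 in edgeR, still outside the threshold. It was -0.09 without TKO 2 and -0.21 without TKO 1, so each TKO library decides much of this value.

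The same library was the highest for 9 of 10 hair follicle markers. Their summed CPM was 1063, 1080 and 1311 in Ctrl and 1000, 1110 and 1561 in TKO, with Ptch1, the Hedgehog receptor, the most abundant at 530, 571 and 708 CPM in Ctrl and 542, 591 and 807 CPM in TKO. Ctrl 3 and TKO 3 have the highest sums in their groups, as they have for Klk13. TKO 3 was also the highest library for 6 of 8 tested skeletal muscle, 4 of 12 basal, 2 of 11 spinous and 1 of 12 granular markers. How many of all genes tested are highest in TKO 3, in Ctrl 2 or in TKO 2 was not counted. The part of hair follicle cells in the values of Klk10 and Klk13 was not tested.

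Klk9, a member of little known function, had 151, 169 and 171 counts in Ctrl and 189, 78 and 252 in TKO. TKO held both the lowest and the highest library, and the log2 fold change was -0.01 (-0.98 to 0.96), with a positive sign when Ctrl 1, Ctrl 3 or TKO 2 was left out. The antisense RNA 2310002F09Rik shares 1010 of 1476 exon bases with Klk9 457 of 1572 with Klk8, 287 of 1271 with Klk14 and 202 of 2059 with Klk11, and none with Klk10 or Klk13. It had 382, 551 and 646 counts in Ctrl and 640, 427 and 529 in TKO. Whether the counting used the strand is not given in the sources used here, so reads of this RNA may be mixed with those of these 4 genes. Klk6, known from brain and skin, had 7, 0 and 3 counts in Ctrl and 0 in each TKO library, and was not tested.

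For 4 of the 7 tested protein-coding members, Klk8, Klk9, Klk10 and Klk11, the 95% interval lay within a log2 fold change of 1 in either direction. The intervals of Klk5, Klk7 and Klk13 reach further on the lower side. What size of change 3 libraries per group could detect was not tested.

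**Figure D2:**
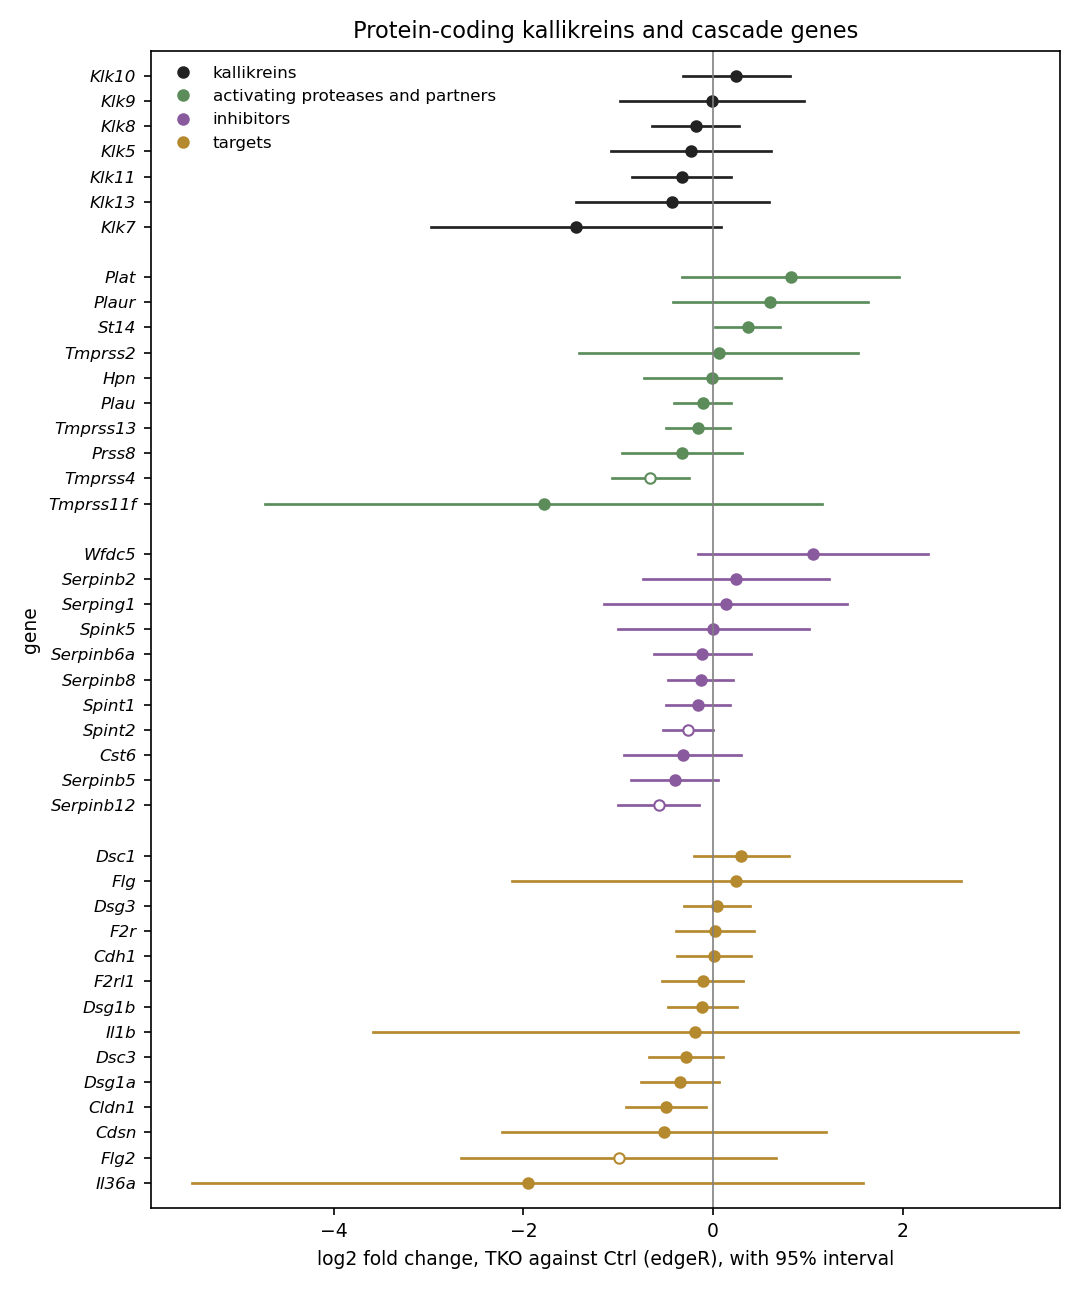
Log2 fold change of TKO against Ctrl with its 95% interval for the 7 tested protein-coding kallikreins and 35 tested genes of activating proteases and their partners, inhibitors and targets. Open circles mark genes whose groups do not overlap. All 7 kallikrein intervals include 0, and that of Klk7 is the widest of them.

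Levels of different genes were compared as TPM, which divide counts by exon length and scale them to a fixed sum per library. Over the 6 libraries the mean level was 50.2 TPM for Klk10, 38.6 for Klk11, 32.02 for Klk8 and 27.4 for Klk13. Each of these neighbours kept its order in 5 of 6 libraries, and their ranges overlap in both groups. A wide step follows, since Klk9 at 4.66 TPM and Klk5 at 4.28 TPM lay below Klk13 in 6 of 6 libraries with ranges apart in Ctrl and in TKO. Klk9 and Klk5 do not differ beyond their spread, with Klk9 higher in 4 of 6. Klk7 at 0.991 TPM was below Klk5 in 6 of 6, again with ranges apart, and Klk14 at 0.306 and Klk6 at 0.0461 TPM came last with ranges that overlap their neighbours.

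The 9 protein-coding members together reached 161.6 ± 33.8 TPM in Ctrl and 155.5 ± 47.0 TPM in TKO (SD, n = 3 each). The difference is smaller than the spread between replicates. Klk10 took 27.8% ± 3.7 of the sum in Ctrl and 35.7% ± 3.3 in TKO, Klk11 took 26.0% ± 2.5 and 22.8% ± 2.5, Klk8 20.3% ± 1.9 and 20.9% ± 5.4, and Klk13 18.9% ± 2.3 and 14.2% ± 5.9. The share of Klk10 overlaps between the groups by a narrow margin, with 32.1% in Ctrl 2 and 31.8% in TKO 1. Without division by length the groups were apart, as Klk10 took 36.9%, 44.7% and 37.2% of the summed CPM of the 10 members in Ctrl and 45.1%, 52.3% and 49.0% in TKO. Klk2-ps stood at 6.23, 12.5 and 4.24 TPM in TKO 1, 2 and 3. On this scale it was above Klk5 in all 3 TKO libraries, where Klk5 had 3.46, 4.90 and 3.99 TPM, and above Klk13 in TKO 2, where Klk13 had 11.5 TPM.

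**Figure D3:**
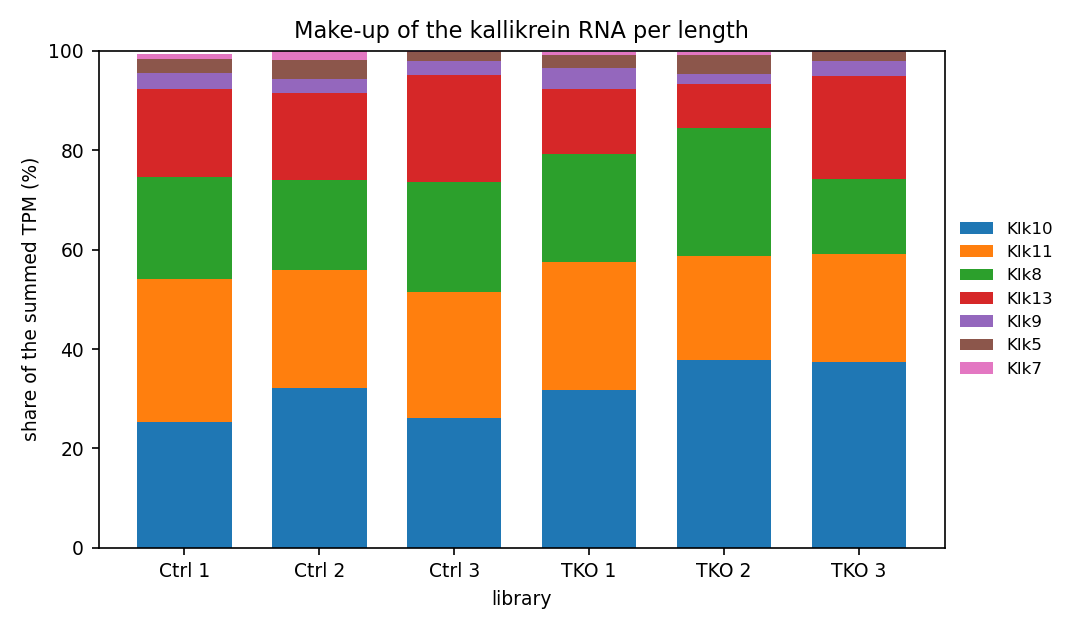
Share (%) of the summed TPM of the 9 protein-coding kallikreins taken by the 7 most abundant, in each Ctrl and TKO library. Klk10, Klk11, Klk8 and Klk13 take nearly the whole column everywhere, and the Klk13 band is thinnest in TKO 2.

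The rest of the cluster was nearly silent. From Klk14 to Klk1 it spans 539 kb and the table lists 37 kallikrein rows in it, pseudogenes included, of which 7 had no count in any library. Of the 27 rows outside the members, 25 had no more than 16 counts in any library, a limit chosen after the values were seen. The exceptions were Klk1b24 and Klk1b3. On a list of the 17 other kallikreins with a protein-coding record, 2 were tested, Klk1b24 and Klk12. By edgeR 0 were called, and by DESeq2 1, Klk1b24, where these tools called 0.131% and 0.936% of all genes higher.

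Klk1b24, one of the glandular kallikreins that rodents carry in many copies, had 0, 0 and 9 counts in Ctrl and 97, 173 and 158 in TKO. Every TKO library lies above every Ctrl library. With so few counts in Ctrl the gene passed the filter only through its TKO libraries, so its direction was fixed by the filter, the 6.35% of all genes tested that lie this way are no fair reference, and the p-values below are a description. The mean CPM was 44.2-fold higher in TKO, at 1.23 ± 0.38 CPM against 0.0278 ± 0.0482 CPM (SD, n = 3 each). The edgeR log2 fold change was 5.44 with an SE of 1.07 and an adjusted p of 0.157, outside the threshold, and DESeq2 on the same genes gave an adjusted p of 1.41e-06. All Ctrl counts came from Ctrl 3, without which the log2 fold change was 10.15 and the adjusted p in edgeR 0.0719. Of the stretches of 50 bases in the Klk1b24 transcript, 33.9% also occur in another gene, most often in Klk1b21, whose row is 0 in all 6 libraries. How many counts of Klk1b24 came from such shared stretches is not known. Klk1b3 had 3, 0 and 0 counts in Ctrl and 5, 30 and 7 in TKO and was not tested, and 21.3% of its stretches are shared.

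Klk2-ps and Klk1b24 are 267 kb apart, and the 33 rows between them, 20 of them kallikreins, held at most 16 counts in any library, with 13 at 0 throughout. Directly beside Klk2-ps, Klk15, 10.9 kb downstream, had 2 counts in Ctrl 1 and 0 elsewhere. Klk4, the enamel protease, 30.4 kb upstream, had 0, 5 and 3 counts in Ctrl and 0 in TKO. Of the 5 listed genes on each side only Klk5, 65.1 kb upstream, passed the filter, and the others (Klk6, Gm44707, Gm45173 and Klk4 upstream, Klk15, Gm44756, Klk1b7-ps, Gm44945 and Klk1b8 downstream) had at most 14 counts. In all 10 of these neighbours the groups overlap.

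**Figure D4:**
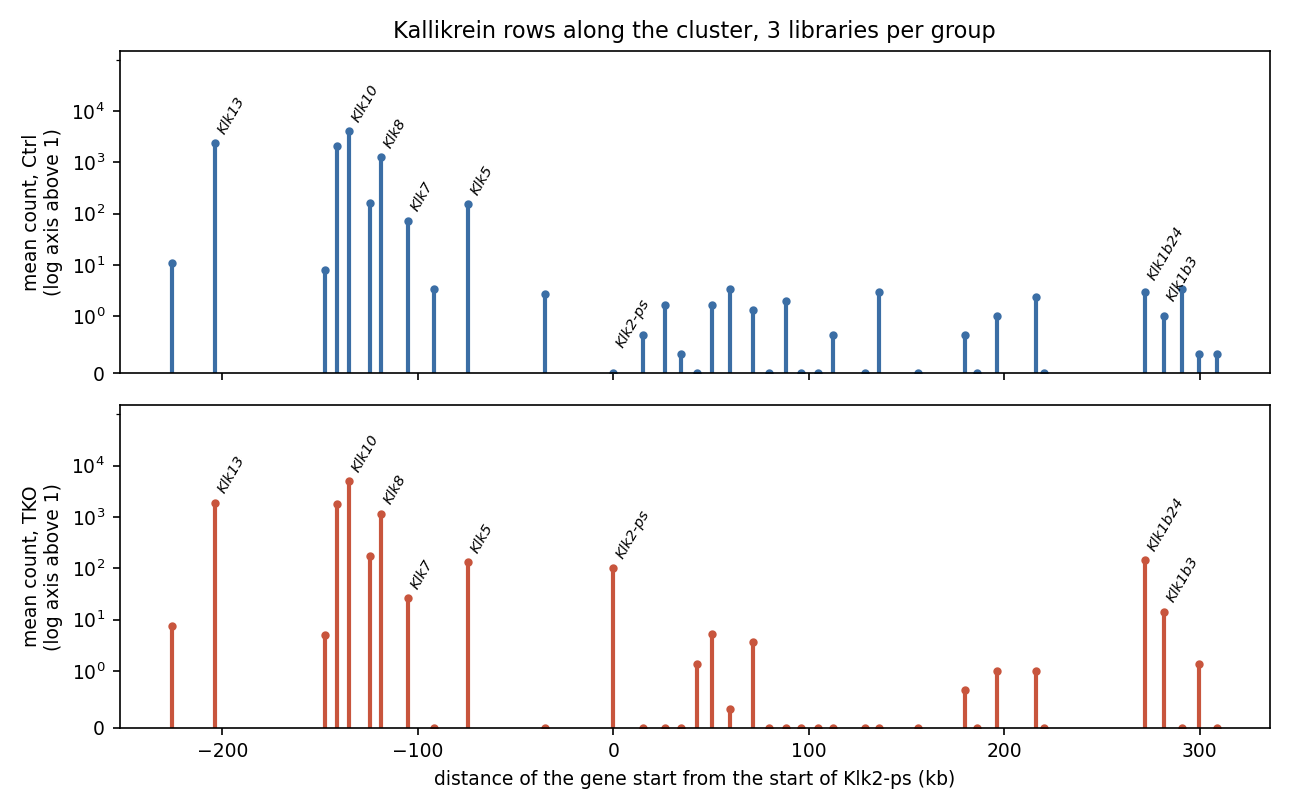
Mean count (log axis above 1) of each kallikrein row in Ctrl (top) and TKO (bottom) against the distance of its start from that of Klk2-ps in kb. Most genes from Klk13 to Klk5 are well above 10 counts in both groups, while in TKO Klk2-ps and Klk1b24 reach about the level of Klk5 among rows near 0.

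The proteases, inhibitors and substrates that work with kallikreins were described from 3 lists. Of their 48 genes 35 were tested and 0 were called by edgeR or by DESeq2. At an unadjusted p under 0.05 in edgeR, 1 was higher and 3 were lower, where 4.06% and 2.02% of all genes were, and 13 had a positive and 22 a negative log2 fold change, with a median of -0.11 against 0.01 over all genes. In 0 of the 35 did all TKO libraries lie above Ctrl and in 4 they lay below, against 6.35% and 5.11% of all genes.

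Among 15 activating proteases and partners 10 were tested, with a median of -0.06. Tmprss4, a membrane-bound serine protease, had 91.8, 92.2 and 87.4 CPM in Ctrl and 68.5, 41.2 and 61.7 CPM in TKO. The groups do not overlap, and the log2 fold change was -0.66 (edgeR adjusted p = 0.360). St14, which encodes matriptase, an activator of kallikrein precursors, had 74.7, 65.5 and 70.7 CPM in Ctrl and 71.8, 101 and 98.1 CPM in TKO, with a log2 fold change of 0.36 (edgeR adjusted p = 0.791). Prss8, or prostasin, which works with matriptase, gave -0.33 and Plau, the urokinase, -0.11, both with overlapping groups.

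Among 17 inhibitors 11 were tested, with a median of -0.13. Spink5, the source of LEKTI, had 213, 830 and 398 counts in Ctrl and 522, 629 and 266 in TKO. Ctrl 2 is again the highest library, and the log2 fold change was 0.00 (-1.01 to 1.01). Serpinb12, an intracellular serine protease inhibitor, had 59.4, 73.6 and 83.9 CPM in Ctrl and 53.4, 36.8 and 55.5 CPM in TKO, without overlap, at -0.57 (edgeR adjusted p = 0.583). Spint2, an inhibitor of matriptase, was lower in all TKO libraries than in any Ctrl library, at -0.26 (edgeR adjusted p = 0.836). Spink12, a Kazal-type inhibitor, had 0 counts in every Ctrl library and 9, 39 and 23 in TKO, at least 7.61-fold higher than the floor, and had too few counts for the filter. A2ml1, a broad protease inhibitor of skin, had 8, 15 and 15 counts in Ctrl and 6, 0 and 0 in TKO, also untested.

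Among 16 targets 14 were tested, with a median of -0.15. Cdsn, the corneodesmosin that Klk5 and Klk7 cut, had 14, 216 and 40 counts in Ctrl and 52, 63 and 63 in TKO. It was highest in Ctrl 2 as Klk7 was, and its log2 fold change was -0.52 (-2.22 to 1.19). Cldn1, a tight junction protein, had 162, 219 and 212 CPM in Ctrl and 124, 117 and 178 CPM in TKO, at -0.50 (edgeR adjusted p = 0.729). The desmosomal cadherin Dsg1a gave -0.35 and F2rl1, the receptor PAR2 that kallikreins can activate, -0.11, both with overlapping groups. Flg2, a filaggrin-like protein of the outer layers, lay lower in every TKO library but at no more than 0.302 CPM.

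The sorted cells carried basal and suprabasal RNA. The basal keratins Krt5 and Krt14 had mean levels of 22003 and 13760 TPM in Ctrl and 17605 and 12123 TPM in TKO, and the suprabasal keratins Krt1 and Krt10 had 10227 and 18189 TPM in Ctrl and 7722 and 14565 TPM in TKO. In TPM the groups overlap for Krt1 and for Krt10, whereas in CPM every TKO library lay below every Ctrl library, with adjusted p-values of 0.658 and 0.762 in edgeR. Of 12 basal markers edgeR called 0, with a median of 0.02. DESeq2 called 1 lower, the basal keratin Krt15, where it called 0.102% of all genes tested lower. Krt15 had 268947, 333255 and 225205 counts in Ctrl and 106011, 87458 and 191320 in TKO, without overlap, with a log2 fold change of -1.18 in both tools and adjusted p-values of 0.00066 in DESeq2 and 0.185 in edgeR. Of 11 tested spinous markers both tools called 0, with a median of -0.11 in edgeR. In 3 of the 11 every TKO library lay below every Ctrl library and in 0 above, against 5.11% and 6.35% of all genes tested. At an unadjusted p under 0.05 in edgeR, 3 were lower and 0 higher, where 2.02% and 4.06% of all genes were. Markers of both layers were thus abundant in every library labelled as basal cells, and the suprabasal layers are where several kallikreins are known to be made.

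Markers of other cell types were counted as well. Of 7 tested Merkel cell markers edgeR called 0 and DESeq2 called 2 lower, Krt8 and Isl1 (DESeq2 adjusted p = 4.94e-06 and 0.0136). Over all genes tested these tools called 0% and 0.102% lower. In edgeR all 7 Merkel cell markers had a negative log2 fold change, as 9916 of the 20622 genes tested had. In 6 of them the TKO libraries lay below all Ctrl libraries, as in 5.11% of all genes tested. Their summed CPM was 21.3, 24.5 and 23.6 in Ctrl and 9.73, 11.9 and 12.2 in TKO, mostly from Piezo2. The 8 skeletal muscle markers all had a positive log2 fold change, as 51.9% of all genes tested had. Of them edgeR called 1 higher, Myh3, a myosin of developing muscle, while DESeq2 called 3, Myh3, Acta1 and Ttn. Over all genes tested these tools called 0.131% and 0.936% higher. The summed CPM of this list was 3.65, 11.1 and 7.37 in Ctrl and 32.3, 32.4 and 34.5 in TKO. Ttn, the giant protein of the sarcomere, was the most abundant. Of 8 melanocyte, 8 fibroblast, 6 endothelial and 6 immune markers tested edgeR called 0, with medians of 0.38, -0.13, 0.60 and 0.34. DESeq2 called 1 higher, the melanocyte gene Mlana, with 14, 2 and 18 counts in Ctrl and 117, 169 and 37 in TKO (DESeq2 adjusted p = 0.0206). With 2 counts in Ctrl 2, Mlana could not pass the filter through its Ctrl libraries alone. The lists were chosen with earlier results of these data known, so its p-value is a description. TKO 2, the highest library for Klk2-ps and Klk1b24, was also the highest for 5 of the 6 endothelial and 5 of the 6 immune markers. The summed CPM was 29.6, 28.6 and 40.6 in Ctrl and 27.3, 68.5 and 55.0 in TKO for the endothelial list, led by Cdh5, and 25.1, 52.5 and 17.1 in Ctrl and 9.53, 87.5 and 25.3 in TKO for the immune list, led by Csf1r. The sort on Epcam and α6 is meant to keep epithelial cells and to leave out muscle, fibroblasts, endothelial cells, immune cells and melanocytes. None of the markers in these lists was at 0 in all libraries. The part of these cells in the Klk2-ps and Klk1b24 values was not tested.

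The targeted genes were checked too. Setdb1 had 126, 118 and 121 CPM in Ctrl and 95.3, 62.3 and 74.9 CPM in TKO. Its groups do not overlap and the log2 fold change was -0.65 (edgeR adjusted p = 0.286, DESeq2 adjusted p = 0.0449), short of the fold that a call needs. Suv39h1 had 88.7, 78.5 and 84.0 CPM in Ctrl and 75.6, 68.9 and 89.4 CPM in TKO, at -0.10, and Suv39h2, deleted in both groups, had 1575, 2204 and 1677 counts in Ctrl and 2226, 1767 and 2129 counts in TKO, at 0.11. The counts are given per gene and not per exon, so the loss of the targeted exons was not tested.

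The genes most like a member across libraries were found by Pearson's r of log2 CPM over the 6 libraries, as a description. For Klk2-ps they were the long non-coding RNAs Gm16364, Gm29439 and Gm7489 and the pseudogenes Gm9259 and Rps3a2, with r of 0.996 or above. Of these, 4 had 0 counts in every Ctrl library and so share with Klk2-ps the step from 0, while Rps3a2 had 419, 649 and 454 counts in Ctrl and 5053, 5835 and 4708 in TKO. The members were left out of this search, so of the kallikreins only Klk1b24 and Klk12 could have appeared, and neither did. Gm29439 alone of the genes found lies on chromosome 7. Between Klk2-ps and the tested protein-coding members r ran from -0.61 for Klk11 to 0.20 for Klk10. For Klk10 they were Ube2r2, Ube2l3, Plscr3, Fads1 and Sostdc1, with r from 0.987 to 0.994, and each is highest in TKO 3. Between Klk10 and the other 6 tested protein-coding members r ran from -0.40 for Klk7 to 0.60 for Klk13. These are descriptions over 6 libraries that differ in depth and in the share of other cell types, and values of 1 library enter both genes of a pair.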

How the data were processed

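The authors depleted total RNA of rRNA, prepared libraries with the NEBNext Ultra II RNA kit, sequenced paired ends, trimmed with fastp, aligned with STAR and deposited 1 table of raw counts, with a row for each Ensembl gene, without normalization or pooling. The study's methods name GRCm39 and the submitters' processing notes GRCm38. The counting program, annotation and strand setting are not given in the sources used here. Symbols, positions, exon lengths and transcripts came from GENCODE vM39 (GRCm39), where 51477 of 55536 identifiers matched, with 86.4% to 94.1% of each library's counts.

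Counts were fitted with edgeR 4.0.16 in R 4.3.3 (filterByExpr, minimum count 10 and minimum total 15, TMM, robust glmQLFit, glmQLFTest), with Benjamini-Hochberg adjustment over 20622 genes. A call needed an adjusted p under 0.05 and a log2 fold change beyond 1 in either direction. Intervals use the SE and the degrees of freedom of the fit. The biological coefficient of variation was 36.5%. TPM were computed from the counts and merged exon lengths. Alternatives were DESeq2 1.42.0, RLE, no filter, at least 10 counts in every library, a replicate block, sex as a factor, no robust estimation and leaving out each library. Scripts were tested on simulated data. Transcripts were compared with blastn 2.17.0 and by shared stretches of 50 bases.

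The members and lists were chosen with earlier results of these data known. Named genes are the members, the 3 targeted genes, listed kallikreins and cascade genes (first those with an unadjusted p under 0.05 or groups that do not overlap), the most abundant marker of a list, 5 genes on each side of Klk2-ps, overlapping genes, and the 5 genes most like Klk2-ps or Klk10 by r with a prior count of 0.5. Markers beyond these were chosen after their values were seen. The labels do not name the embryo of each replicate, though each group holds both sex codes. The paper states that all experiments had at least 3 biological replicates. The p-values measure the spread between these samples.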

Additional observations from a re-analysis of the deposited data

How the results depend on the processing

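The number of genes called was 27, and it was 214 with DESeq2, 235 with no filter on low counts and 9 with at least 10 counts in every library, where Klk2-ps is not tested. It ranged from 7 to 81 when one library was left out. Klk2-ps stayed called in DESeq2 and in the fits with RLE, no filter, no robust estimation and sex as a factor, with log2 fold changes from 9.07 to 9.67, and leaving out one library gave 9.15 to 9.92 with adjusted p-values from 0.0259 to 0.115. Leaving out one library moved Klk9 between -0.35 and 0.32, with a positive sign without Ctrl 1 (0.01), Ctrl 3 (0.04) and TKO 2 (0.32), and Klk10 between -0.13 (without TKO 3) and 0.44. Klk13 ranged from -1.26 to -0.09 when one library was left out. Klk1b24 was called with DESeq2 and with no filter. The mean share of Klk10 was 31.8% of the TPM and 44.5% of the CPM without length, and 3 of the 5 genes most like Klk2-ps were the same with a prior count of 2. In the fit with a replicate block 45 genes were called and Klk2-ps had 9.71 at an adjusted p of 0.0315. Deviations of same-numbered libraries correlated at 0.0873 to 0.168 and each library correlated best with its own number. The study's controls were in general littermates without the recombinase and 3 litters are listed for this experiment, but no source used here says which samples shared a litter. Klk6, Klk14 and most of the silent rows had too few counts for the filter of the main fit and were not tested in it.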
